A study of Homo sapiens with 9 samples.

Results

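The 10 genes described here encode 5 regulators of G protein signalling (RGS2, RGS3, RGS10, RGS12 and RGS19) and 5 alpha subunits of heterotrimeric G proteins (GNAI2, GNAI3, GNAQ, GNAS and GNA13), out of 27902 genes with a level in the tables. They were chosen by the measured RGS2 level as well as by gene family, since FZD6, the gene knocked down, encodes a Frizzled receptor of the G protein-coupled receptor superfamily and RGS2 mRNA rose with its knockdown in these same libraries. The RGS2 difference between knockdown and control is therefore a description of how the genes were chosen and is given with no test. The level of each gene was the sum of its RefSeq accessions in FPKM, a fragment count scaled to transcript length and to library size, so levels of different genes can be set side by side.

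A heterotrimeric G protein is made of an alpha subunit that binds GTP or GDP and a beta-gamma pair. An activated receptor makes the alpha subunit exchange GDP for GTP, and the alpha and beta-gamma parts then act on enzymes and channels until the alpha subunit hydrolyses its GTP. RGS proteins speed up that hydrolysis and so shorten the signal. Gs (GNAS) stimulates adenylyl cyclase, Gi (GNAI2, GNAI3) inhibits it, Gq (GNAQ) activates phospholipase C beta, and G13 (GNA13) activates guanine nucleotide exchange factors of small GTPases that act on the cytoskeleton.

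RNA was sequenced from DU145, an established human prostate cancer cell line. All 9 libraries came from cells labelled as WT that expressed a short hairpin RNA (shRNA). The groups had 3 libraries each: a scrambled hairpin (control), FZD6 hairpin #1 (shRNA1) and FZD6 hairpin #2 (shRNA2). The sources name lentiviral vectors for constitutive and for inducible hairpins but do not tie either to these libraries, and neither a time after infection nor the origin of the triplicates (separate infections or one culture) was given. P-values therefore measure the spread between these libraries, which may be partly technical. The bounds that Cufflinks put on each level corresponded to about 32200000 to 40200000 fragments per library.

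FZD6 was at 20.9, 20.5 and 20.04 FPKM in the control libraries, 9.47, 10.2 and 9.8 in shRNA1, and 7.84, 8.79 and 7.69 in shRNA2. The hairpin libraries all lay below the control libraries. The log2 fold change was -0.99 ± 0.05 (SE) with shRNA1 and -1.24 ± 0.05 with shRNA2 (limma, adjusted p = 0.000329 and 4.51e-05), and the 2 hairpins differed by -0.25 (shRNA2 lower, adjusted p = 0.0273). The epithelial markers KRT8, KRT18, KRT19, EPCAM and CDH1 were all expressed, with a summed FPKM of 666 to 692 in control, 714 to 728 in shRNA1 and 665 to 692 in shRNA2. The prostate luminal markers KLK2, KLK3, TMPRSS2 and FOLH1 stayed below 0.05 FPKM in each library. Fibroblast markers summed to at most 0.491 FPKM, and of the immune and endothelial markers only CD68, a lysosomal protein of macrophages that other cells also make, was expressed, at 16.9 to 25.7 FPKM.

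The start regions of RGS2 and RGS10, the genes whose knockdown libraries all lay above all control libraries, are shown first. Both are the 250 bases before the annotated start on the strand of the gene (RefSeq, GRCh38.p14), RGS2 on the plus strand at chr1:192808789-192809038 and RGS10 on the minus strand at chr10:119542720-119542969. Capitals mark exact matches, on either strand, to a cAMP response element half-site (TGACG), to a CCAAT box (spelt as its name) or to a GC box (GGGCGG), and no marked match overlaps another.
RGS2: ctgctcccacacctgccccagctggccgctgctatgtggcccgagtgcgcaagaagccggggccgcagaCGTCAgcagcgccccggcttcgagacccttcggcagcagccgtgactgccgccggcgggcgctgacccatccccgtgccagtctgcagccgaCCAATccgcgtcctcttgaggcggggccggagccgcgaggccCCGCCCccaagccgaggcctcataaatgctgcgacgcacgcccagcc
RGS10: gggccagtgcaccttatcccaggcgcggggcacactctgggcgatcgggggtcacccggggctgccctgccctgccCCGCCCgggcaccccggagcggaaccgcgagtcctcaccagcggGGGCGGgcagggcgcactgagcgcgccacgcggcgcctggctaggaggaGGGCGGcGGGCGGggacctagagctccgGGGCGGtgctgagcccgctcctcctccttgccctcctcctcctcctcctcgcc

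The RGS2 window held 1 match to each of the 3 motifs, beginning 181, 89 and 47 bases before the start for the half-site, the CCAAT box and the GC box. The RGS10 window held 5 GC boxes and no match to the other motifs. Over 35116 windows of the same length before RefSeq starts, 21.2% held the half-site, 32.0% the CCAAT box, 42.6% the GC box, and 4.13% all 3. The 27 windows of 9 of the 10 genes (the table has no entry for GNAQ) held the half-site in 7, the CCAAT box in 4 and the GC box in 13. These counts describe letters in the reference, with no measure of binding.

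The G alpha genes spanned a wider range of level than the RGS genes, with GNAS far above the rest. In control libraries the mean was 27.5 ± 0.906 FPKM (SD, n = 3) for RGS10, 15.4 ± 0.306 for RGS19, 15.3 ± 0.787 for RGS3, 5.68 ± 0.49 for RGS2 and 3.25 ± 0.298 for RGS12. RGS19 and RGS3 overlapped, and the other neighbours in this order were apart in every control library. Among the G alpha genes the control mean was 985 ± 21.4 FPKM for GNAS, 192 ± 6.88 for GNAI2, 20.2 ± 0.759 for GNA13, 14.6 ± 0.524 for GNAQ and 9.43 ± 0.235 for GNAI3, with no overlap between neighbours. The 5 RGS genes made up 79 to 81.2% of the summed FPKM of 21 RGS genes in each library. The 5 G alpha genes made up 94.6 to 94.9% of that of 16 G alpha genes.

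**Figure D1:**
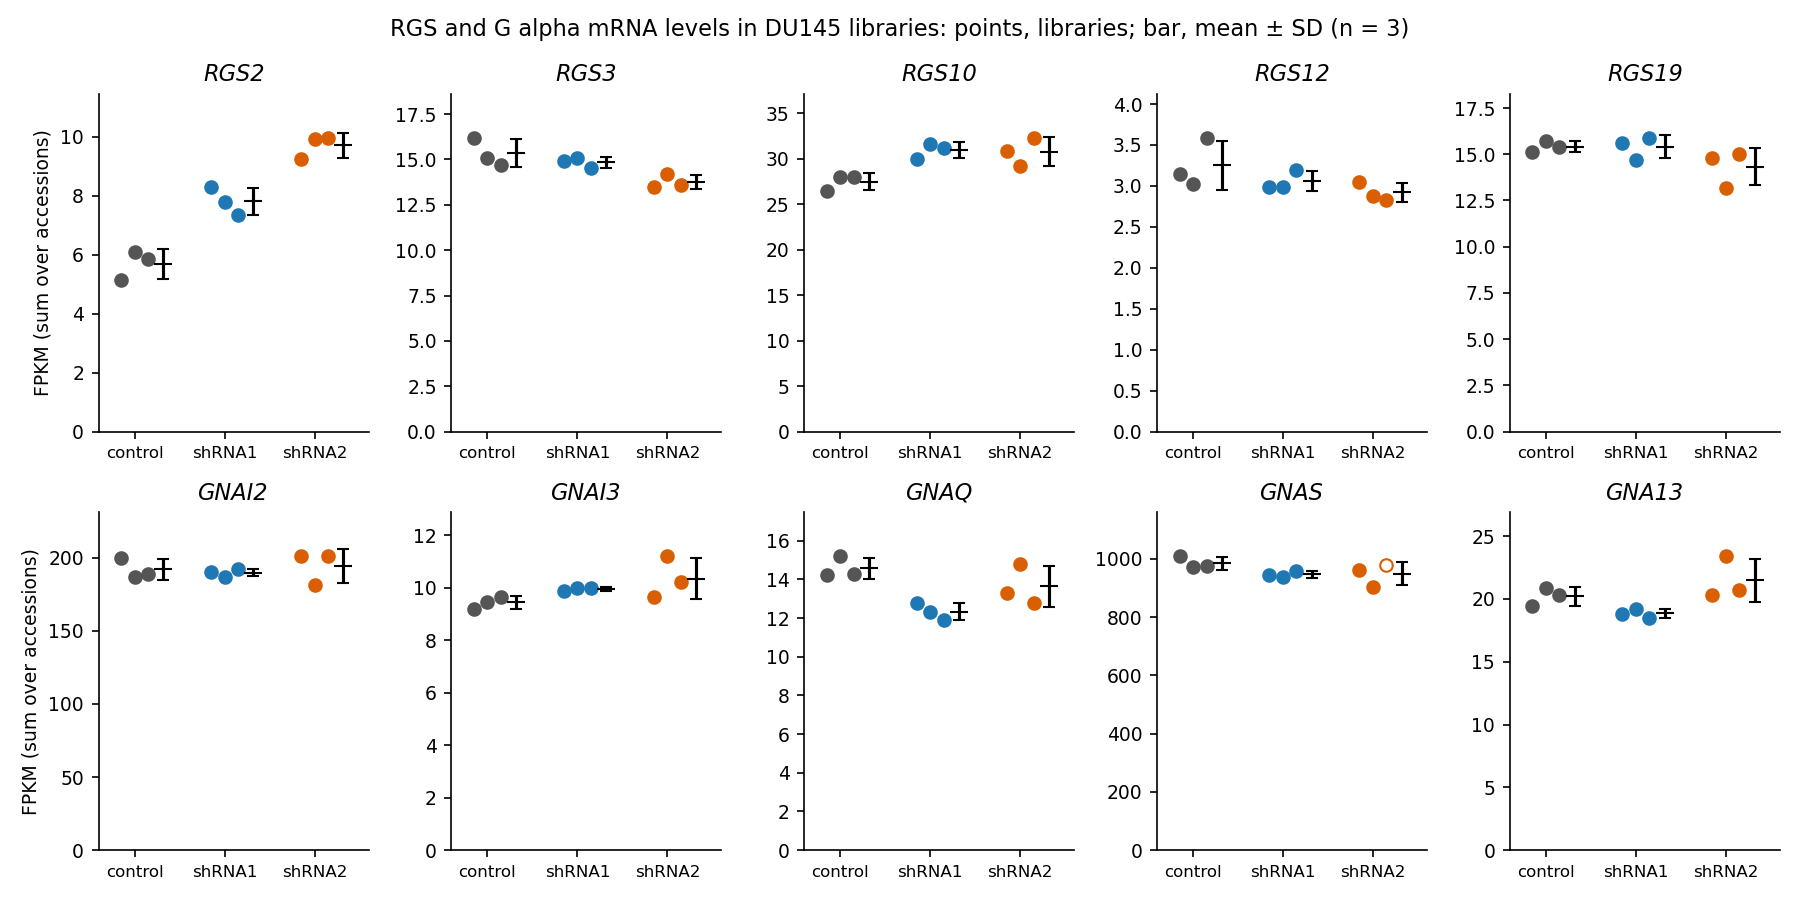
FPKM of each gene (y axes, starting at 0) in the control, shRNA1 and shRNA2 libraries (x axis); points are libraries, the bar beside them is the mean ± SD (n = 3), and the open GNAS point is a value that Cufflinks marked as failed. RGS2 was lowest in control and highest in shRNA2 with no overlap, RGS10 was higher in both hairpin groups, and the largest G alpha levels, those of GNAS and GNAI2, differed little between groups.

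Differences were tested with limma on log2(FPKM + 1), which understates the change of low genes, and p-values were adjusted over all 12509 genes that averaged 1 FPKM or more. All 10 genes passed that filter. GNAS was left out of the main test because its estimates had failed in 1 library, so 8 genes other than RGS2 were tested against control. In the comparison of 6 knockdown with 3 control libraries, 1 of the 8 was called (RGS10, higher), beside 20.6% of all genes tested (13.5% higher, 7.1% lower). With shRNA1 2 of the 8 were called (RGS10 higher, GNAQ lower), beside 18.8% of all genes (11.7% higher, 7.19% lower), and with shRNA2 2 of the 8 (RGS10 higher, RGS3 lower), beside 26.7% (15.3% higher, 11.4% lower). The comparisons of the hairpins with control share the control libraries. The median log2 fold change of the 8 was -0.03 in the pooled comparison and 0.03 over all genes tested. Between the hairpins, 1 of 9 tested genes was called, RGS2, higher with shRNA2, beside 6.71% of all genes (1.92% higher).

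RGS2 is a small RGS protein that acts mainly on Gq and also interacts with adenylyl cyclase. Its gene lies on chromosome 1 at 192809039 to 192812275, where the annotation has no other gene, and a single accession, NM_002923, was measured. RGS2 was at 5.13, 6.08 and 5.84 FPKM in control, 8.29, 7.78 and 7.35 in shRNA1, and 9.23, 9.92 and 9.97 in shRNA2. The groups did not overlap, with control lowest and shRNA2 highest. Over control, the mean FPKM was higher by 37.4% with shRNA1 and by 70.8% with shRNA2. On the log2(FPKM + 1) scale the differences were 0.40 and 0.68, and neither carries a test here. The Cufflinks bounds corresponded to about 215 to 295 fragments per control library and 380 to 477 per shRNA2 library, the fewest of the 3 genes with a single accession.

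The difference between hairpins was not used in choosing RGS2. It was 0.28 ± 0.063 (log2, SE, 95% interval 0.13 to 0.43, n = 3 per group) with an adjusted p of 0.0409 in limma. The call was lost with the replicate number as a block (adjusted p = 0.0696), with no filter on low genes (0.0636) and with only the 6 hairpin libraries (0.0597). It was also lost when any 1 of 7 libraries was left out (control replicate 3 and each shRNA1 and shRNA2 library, adjusted p 0.0662 to 0.131), while the log2 difference stayed between 0.24 and 0.32.

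RGS10 is one of the smallest RGS proteins and acts on Gi family alpha subunits. Its gene lies on chromosome 10 at 119499817 to 119542719. It was at 26.4, 28.0 and 28.0 FPKM in control, 30.0, 31.6 and 31.2 in shRNA1, and 30.8, 29.2 and 32.3 in shRNA2. All knockdown libraries lay above the control range. Knockdown and control libraries did not overlap, in either direction, for 25.9% of all genes tested. No such share is given for single hairpins, of genes or of accessions. Separations of a single hairpin from the other libraries are therefore descriptions. The log2 fold change over control was 0.16 ± 0.037 (adjusted p = 0.0179) for the pooled hairpins, 0.17 with shRNA1 (adjusted p = 0.036) and 0.16 with shRNA2 (adjusted p = 0.0339) in limma. The hairpins differed by -0.01 (95% interval -0.11 to 0.09).

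The pooled RGS10 call was lost without control replicate 1 (limma adjusted p = 0.0794) and without control replicate 2 (0.0518). For each hairpin alone it was lost when any 1 of 7 of the 9 libraries was left out (adjusted p up to 0.109 for shRNA1 and 0.102 for shRNA2). The shRNA1 call was also lost with median centring (adjusted p = 0.0562) and with quantile normalization (0.071). The log2 fold changes of all genes moved with transcript length (Spearman correlation of -0.435 over 12295 genes, a correlation across genes, which are not independent replicates), with shorter genes higher after knockdown. The main RGS10 accession, NM_001005339, is 804 bases long. After the length trend was removed within each library, the RGS10 log2 fold change was 0.04 (adjusted p = 0.331) for pooled knockdown, 0.05 with shRNA1 (0.393) and 0.04 with shRNA2 (0.375). For RGS2, at 1354 bases, it was 0.45.

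RGS3 acts on Gi and Gq alpha subunits and is transcribed from several promoters. It was at 16.2, 15.1 and 14.7 FPKM in control, 14.9, 15.1 and 14.5 in shRNA1, and 13.5, 14.2 and 13.6 in shRNA2. The shRNA2 libraries were all below the others, whereas shRNA1 overlapped control. The log2 fold change was -0.14 ± 0.039 with shRNA2 (limma adjusted p = 0.0311) and -0.05 with shRNA1 (adjusted p = 0.449), and the hairpins differed by -0.10 (95% interval -0.19 to -0.01, adjusted p = 0.187). The shRNA2 call was lost without control replicate 1 or 2, shRNA1 replicate 1, or shRNA2 replicate 1 or 3 (adjusted p 0.0515 to 0.0815).

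RGS12, a large RGS protein with a GoLoco motif that binds Gi alpha subunits, ranged from 2.83 to 3.59 FPKM over the 9 libraries. Its log2 fold change was -0.07 with shRNA1 and -0.12 with shRNA2 (limma adjusted p = 0.416 and 0.144). RGS19, which binds GAIP-interacting proteins at endosomes and acts on Gi family subunits, was at 15.1, 15.7 and 15.4 FPKM in control, 15.6, 14.7 and 15.9 in shRNA1, and 14.8, 13.2 and 15 in shRNA2. Its shRNA2 libraries lay below the control libraries by a narrow margin, with a log2 fold change of -0.10 (95% interval -0.22 to 0.02, adjusted p = 0.20). With the length trend removed it was -0.18 with shRNA2 (adjusted p = 0.024).

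**Figure D2:**
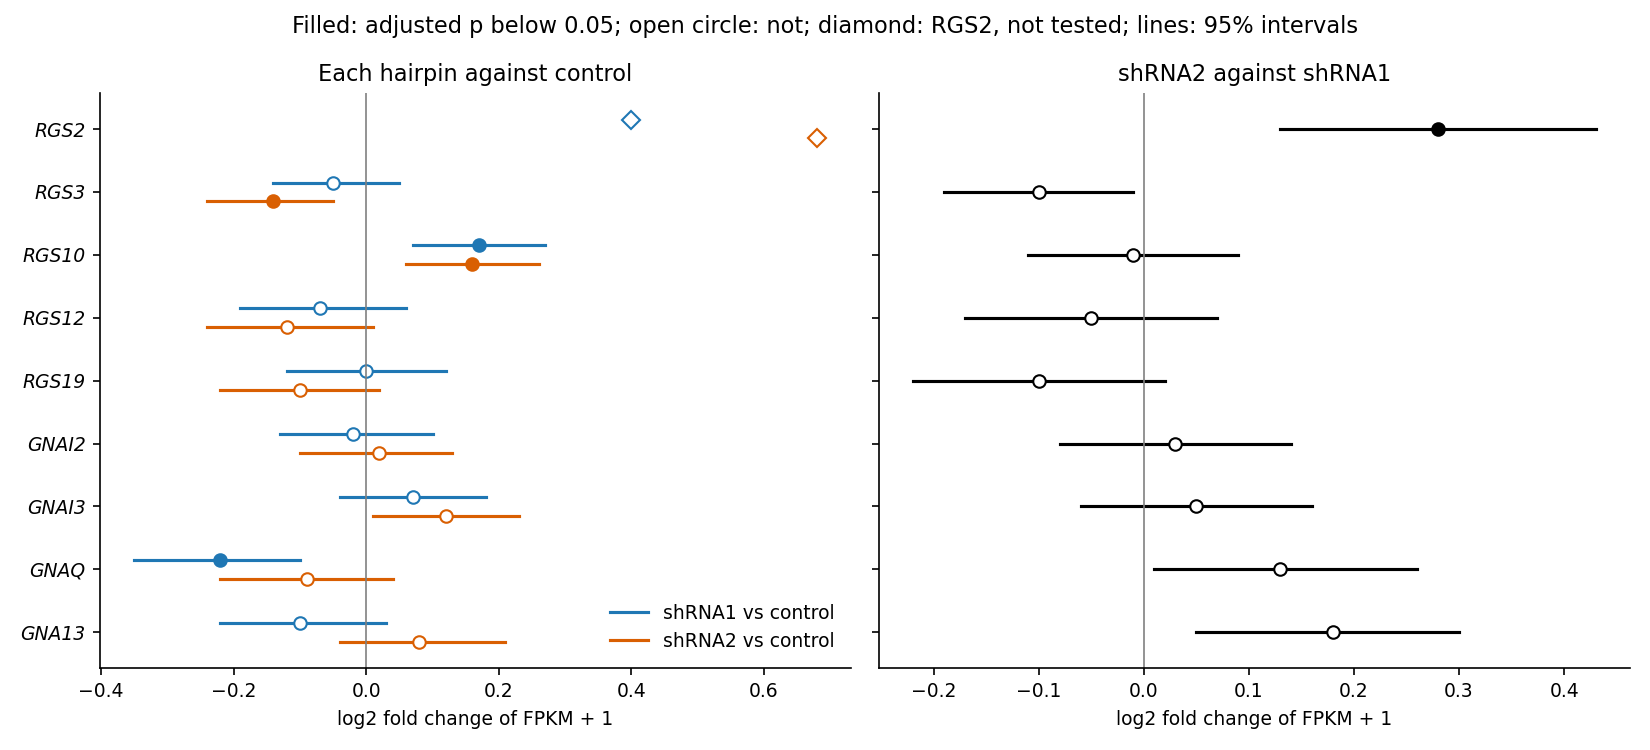
Log2 fold change of FPKM + 1 (x axis) for the 9 tested genes (y axis), each hairpin against control on the left and shRNA2 against shRNA1 on the right; lines are 95% intervals from limma, filled points have an adjusted p below 0.05, and diamonds mark the RGS2 values that were not tested. RGS10 lay at 0.17 and 0.16 with the 2 hairpins, while the GNA13 values lay on opposite sides of 0 (-0.10 and 0.08).

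GNAS encodes the alpha subunit of Gs and lies in an imprinted locus on chromosome 20 (58839748 to 58911192) that also holds antisense genes. It was at 1009, 970 and 974 FPKM in control, 944, 937 and 959 in shRNA1, and 960, 904 and 979 in shRNA2. Cufflinks marked the estimates of its 12 accessions as failed in shRNA2 replicate 3, the library with the value of 979. The shRNA1 libraries were below the control libraries, and shRNA2 overlapped both. In a fit that kept genes whatever their status, chosen after seeing the data, the log2 fold change of GNAS was -0.06 ± 0.03 for pooled knockdown (limma adjusted p = 0.225). Without shRNA2 replicate 3 it was -0.07 (adjusted p = 0.168).

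GNAI2 and GNAI3 encode alpha subunits of Gi. GNAI2 was at 199.8, 187 and 189 FPKM in control, 190.5, 187 and 192 in shRNA1, and 201, 181 and 201 in shRNA2. The groups overlapped, and the pooled log2 fold change was 0.00 (95% interval -0.09 to 0.09). GNAI3 was at 9.19, 9.45 and 9.66 FPKM in control, 9.86, 9.99 and 10.01 in shRNA1, and 9.63, 11.2 and 10.2 in shRNA2. Its log2 fold change was 0.07 with shRNA1 (limma adjusted p = 0.337) and 0.12 with shRNA2 (adjusted p = 0.112). Without shRNA2 replicate 1 the second was 0.16 (adjusted p = 0.0375).

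GNAI3 was called in the pooled comparison once the length trend was removed (log2 fold change 0.39, limma adjusted p = 0.00449). That rested on a GENCODE transcript of 27174 bases, whereas the Cufflinks bounds implied a median of 3896 bases, and at the implied length GNAI3 was not called.

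GNAQ encodes the alpha subunit of Gq, the main target of RGS2. It lies on chromosome 9 (77716097 to 78031811) and was measured through 1 accession, NM_002072. It was at 14.2, 15.2 and 14.3 FPKM in control, 12.8, 12.3 and 11.9 in shRNA1, and 13.3, 14.8 and 12.8 in shRNA2. All shRNA1 libraries were below all control libraries, and shRNA2 replicate 2 lay within the control range. The log2 fold change was -0.22 ± 0.055 with shRNA1 (limma adjusted p = 0.0301) and -0.09 with shRNA2 (adjusted p = 0.258), and the difference between the hairpins did not pass (0.13, 95% interval 0.01 to 0.26, adjusted p = 0.206). The shRNA1 call was lost when any control or shRNA1 library was left out (adjusted p 0.0587 to 0.101). Without shRNA2 replicate 2 GNAQ was called lower for pooled knockdown (-0.19, adjusted p = 0.0123) and for shRNA2 (-0.15, adjusted p = 0.0341).

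GNA13 couples receptors to the actin cytoskeleton and lies on chromosome 17 (65009289 to 65056740). It was at 19.4, 20.9 and 20.2 FPKM in control, 18.8, 19.2 and 18.5 in shRNA1, and 20.3, 23.4 and 20.7 in shRNA2. The shRNA1 libraries were below all others. The hairpins differed by 0.18 (log2, 95% interval 0.05 to 0.30), which missed the threshold (limma adjusted p = 0.101) and passed it with the length trend removed (0.18, adjusted p = 0.0236). In shRNA2 replicate 2 GNAI3, GNAQ and GNA13 were each at the highest level of the 6 knockdown libraries.

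The mix of G alpha mRNAs changed little. Of the summed FPKM of the 5 G alpha genes, GNAS made up 80.7% ± 0.037 in control, 80.4% ± 0.11 in shRNA1 and 79.8% ± 0.16 in shRNA2 (SD, n = 3). The shRNA2 mean includes the failed GNAS estimate. GNAI2 made up 15.7%, 16.1% and 16.3%, and GNA13, GNAQ and GNAI3 each stayed between 0.734 and 2.06% in every library. Among 21 RGS genes, by contrast, RGS2 rose from 6.78% ± 0.53 of summed FPKM in control to 8.64% ± 0.47 in shRNA1 and 11% ± 0.48 in shRNA2, while RGS3 went from 18.3% to 16.4% and 15.6%. The summed FPKM of the 21 RGS genes itself had a mean of 83.74 in control, 90.33 in shRNA1 and 88.58 in shRNA2. A share can therefore fall where the level does not, and the RGS3 level with shRNA1 overlapped control. These shares are descriptions and include the RGS2 level that the choice of genes used.

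The tables hold 43 RefSeq accessions of the 10 genes, and 14 of them, from the 9 genes other than GNAS, had a mean of at least 1 FPKM and were tested. Cufflinks divides fragments between overlapping isoforms, which makes accession levels less certain than gene sums. None of the 13 accessions other than that of RGS2 was called against control with limma, beside 1.26% of 19658 accessions for pooled knockdown (0.422% with shRNA1, 2.83% with shRNA2). An unadjusted p below 0.05 was reached by 2 of the 13 for pooled knockdown, 5 with shRNA1 and 4 with shRNA2. Between the hairpins 0 of 14 were called, beside 0.493% of all accessions, and 4 had an unadjusted p below 0.05.

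An untested GNAS accession ranged from 0.0241 to 32.8 FPKM over the libraries. Among the 14 tested accessions the largest difference between hairpins was in RGS3. Its accession NM_130795 was at 2.54, 3.07 and 3.05 FPKM in control, 4.86, 4.51 and 3.67 in shRNA1, and 1.94, 2.36 and 1.44 in shRNA2. The 3 groups did not overlap, with the hairpins on opposite sides of control, in an accession named after its values were seen. The log2 difference between shRNA2 and shRNA1 was -0.88 and missed the threshold (limma adjusted p = 0.0574), and against control it was 0.46 with shRNA1 and -0.42 with shRNA2 (adjusted p = 0.168 and 0.148). The other main RGS3 accessions were NM_001282923, with 30 to 50% of the gene's FPKM, and NM_017790, with 18.3 to 27.4%.

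RGS12 was divided between NM_002926, with 57.4 to 70% of its FPKM, and the shorter NM_198227. The latter was at 1.14, 1.04 and 1.34 FPKM in control, 1.27, 1.27 and 1.30 in shRNA1, and 1.01, 0.863 and 0.853 in shRNA2. The shRNA2 libraries were the lowest, with a log2 difference from shRNA1 of -0.26 (limma adjusted p = 0.184). RGS19 was divided between NM_001039467 (62.8 to 82.9%) and NM_005873, GNAI2 between NM_002070 (48.5 to 67.2%) and NM_001282620, and GNAS between NM_001309840 (61.8 to 66.8%) and NM_001077489 (32.7 to 35.8%). The ranges of the shares of RGS19, GNAI2 and GNAS accessions overlapped between groups. At least 95% of RGS10 came from NM_001005339 and 95.2% of GNA13 from NM_006572 in each library.

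**Figure D3:**
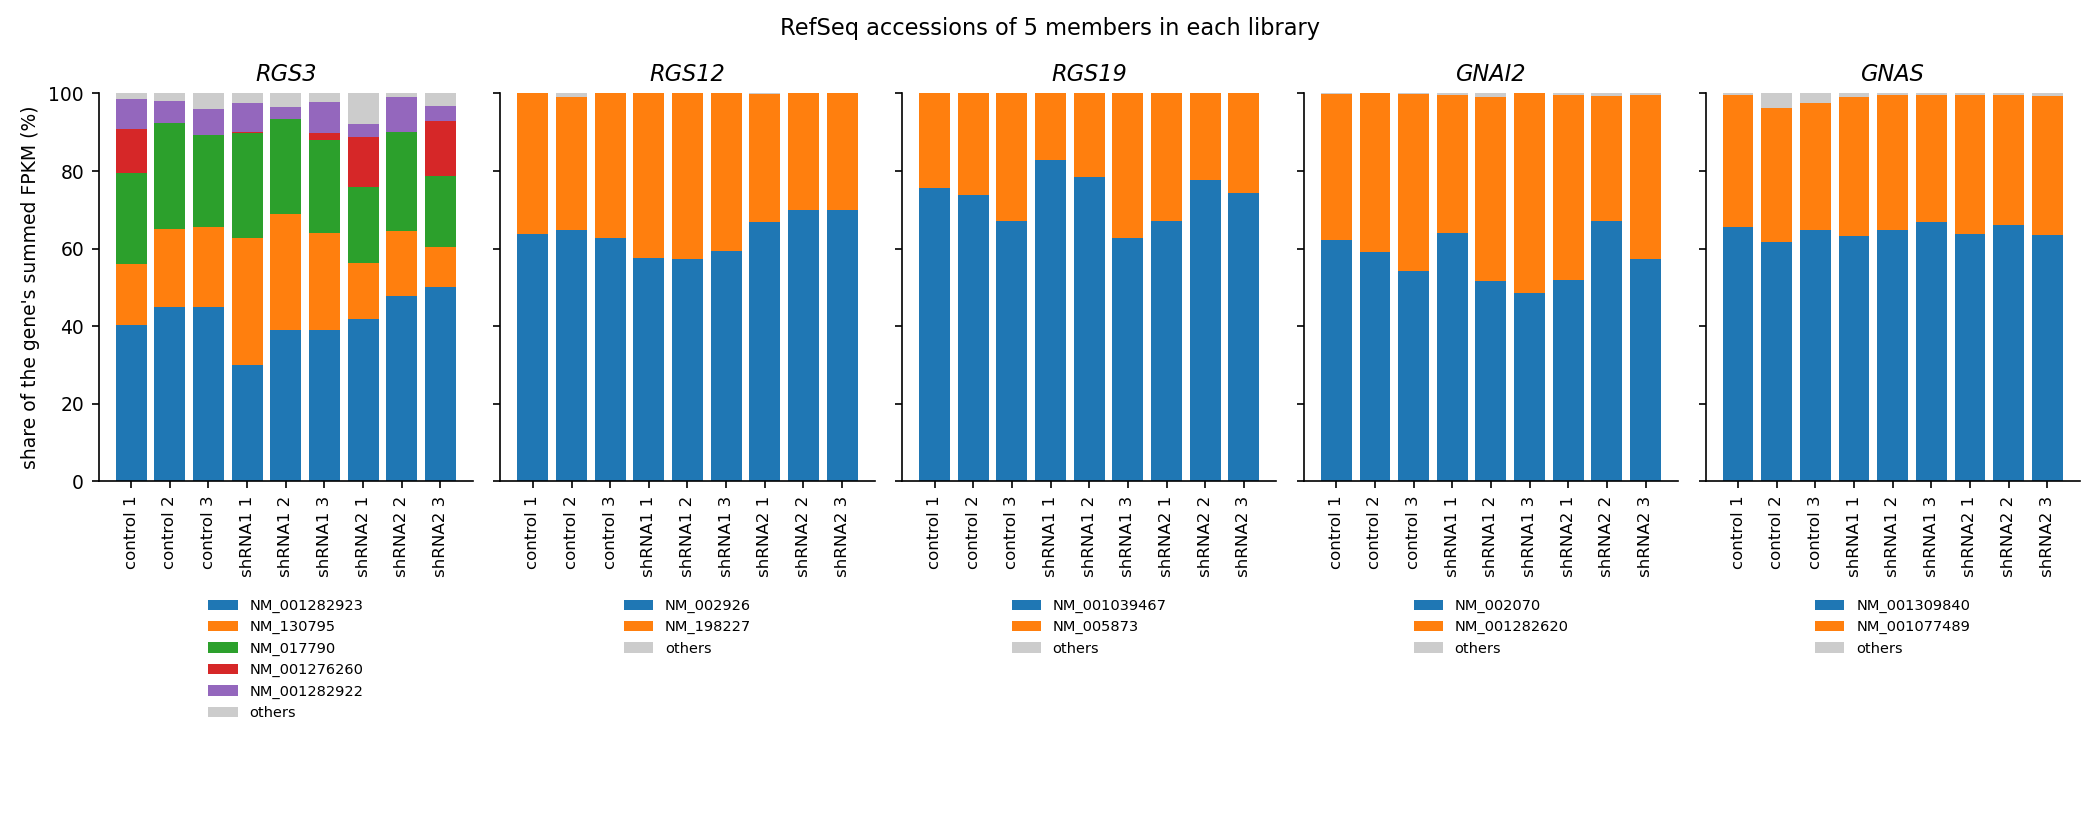
Share of each gene's summed FPKM (y axis, percent) held by its RefSeq accessions in each library (x axis) for RGS3, RGS12, RGS19, GNAI2 and GNAS; accessions under 5% in all libraries are pooled in grey. The RGS3 accession NM_130795 held between 10.5 and 32.7%, while the 2 main GNAS accessions kept close to constant shares.

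The rest of the pathway was read from 8 lists of 120 genes, of which 79 were tested. In pooled knockdown 3 of the 79 rose and 11 fell, 17.7% called beside 20.6% of all genes tested. With shRNA1 3 rose and 10 fell (16.5%, beside 18.8%), and with shRNA2 4 rose and 15 fell (24.1%, beside 26.7%). In pooled knockdown the median log2 fold change of the 79 was -0.06, beside 0.03 over all genes tested. Of the 79, 57 were negative, and the share of negative genes over all genes is not given here. Counts and fold changes below are for pooled knockdown unless a hairpin is named. Over all genes tested, 13.5% were called higher and 7.1% lower in pooled knockdown. Markers moved as well, with EPCAM and KRT19 higher by 0.26 and 0.15 (log2), CDH1 lower at -0.28 and CD68 higher by 0.42, and their part in these results was not tested. The count of 14 fell to 4, 2 and 5 without control replicate 1, 2 or 3, to 9 without shRNA1 replicate 1, and to 7 with the length trend removed. Which of the listed genes named below lost their call in these settings is not given here.

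None of the 4 other RGS family genes tested was called by limma in pooled knockdown (RGS5, RGS14, RGS20 and AXIN1, a scaffold of beta-catenin destruction with an RGS domain), and 1 had an unadjusted p below 0.05. RGS20, at 10.4 to 13 FPKM, had a log2 fold change of 0.11 (adjusted p = 0.132). None of the 5 other G alpha genes tested was called either, and 2 had an unadjusted p below 0.05. GNA11, the closest relative of GNAQ, was at 23.3 to 27.3 FPKM with a log2 fold change of -0.10 (adjusted p = 0.0864), and GNA12, the partner of GNA13, was at 31.7 to 35 FPKM with -0.07 (adjusted p = 0.0963). With single hairpins 1 of these 5 was called lower in each comparison, beside 7.19% (shRNA1) and 11.4% (shRNA2) of all genes. These were GNA12 with shRNA1 (-0.10, adjusted p = 0.0302) and GNAL, a relative of GNAS, with shRNA2 (-0.19, adjusted p = 0.037). Of 10 beta and gamma genes, 1 fell in pooled knockdown (10%, beside 7.1% of all genes called lower and 20.6% called in either direction). This was GNB1, from 161 ± 1.34 (SD, n = 3) to 153 ± 1.91 FPKM (n = 6), a log2 fold change of -0.07 (adjusted p = 0.0445). It was called with shRNA1 (-0.08, adjusted p = 0.0407) and not with shRNA2 (-0.06, adjusted p = 0.0734). With shRNA2 the beta subunit genes GNB2 (-0.27, adjusted p = 0.00911) and GNB5 (-0.21, adjusted p = 0.00706) were called lower, and both were also lower with shRNA2 than with shRNA1 (-0.25 and -0.17, adjusted p = 0.0331 and 0.0429).

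Of 6 receptor kinase and arrestin genes, 2 fell (33.3%, beside 7.1% of all genes called lower and 20.6% called in either direction). ARRB1, beta-arrestin 1, which uncouples receptors from G proteins, had the largest fall in the lists, from 10.6 ± 0.163 FPKM in control to 7.85 ± 0.108 in shRNA1 and 7.99 ± 0.312 in shRNA2 (log2 fold change -0.38, limma adjusted p = 0.00049). GRK5, a kinase that phosphorylates active receptors, fell by 0.09 on the log2 scale from a control mean of 1.98 FPKM (adjusted p = 0.0479). Of 9 chaperones and non-receptor regulators, 1 fell (11.1%, beside 7.1% lower and 20.6% in either direction). This was CCDC88A (girdin, which activates Gi without a receptor), from 16.9 to 14.2 FPKM (-0.24, adjusted p = 0.0215). Its relative CCDC88C was called lower with shRNA2 (-0.39, adjusted p = 0.00203) and was lower there than with shRNA1 (-0.29, adjusted p = 0.0157).

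Of 16 tested cAMP genes, 1 rose and 1 fell (12.5%, beside 20.6% of all genes called). CREM, a transcription factor of the cAMP response, went from 6.66 ± 0.211 to 7.94 ± 0.522 FPKM (log2 fold change 0.22, limma adjusted p = 0.0183), and PDE4A, a cAMP phosphodiesterase, from 9.82 to 8.62 (-0.17, adjusted p = 0.0187). Of 20 tested genes of the Gq and calcium arm, 1 rose and 4 fell (25%, beside 20.6%). RCAN1, an inhibitor of calcineurin, went from 14.3 ± 0.0717 to 16.9 ± 0.913 FPKM (0.22, adjusted p = 0.0114). The inositol trisphosphate receptor genes ITPR1 and ITPR3 changed by -0.24 and -0.17, and TRIO, a guanine nucleotide exchange factor, by -0.26 (adjusted p = 0.0234, 0.0463 and 0.0388). NFATC3 also fell, by 0.11.

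Of 9 tested genes downstream of G12 and G13, 1 rose and 2 fell (33.3%, beside 20.6% of all genes called). ARHGEF12, an exchange factor with an RGS domain that GNA13 activates, went from 33.1 ± 1.82 to 25.8 ± 1.99 FPKM (log2 fold change -0.35, limma adjusted p = 0.0096). AKAP13, another exchange factor, went from 8.52 to 6.74 (-0.30, adjusted p = 0.00962), and the GTPase gene RHOC from 119 ± 5.58 to 137 ± 6.91 (0.20, adjusted p = 0.0258).

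**Figure D4:**
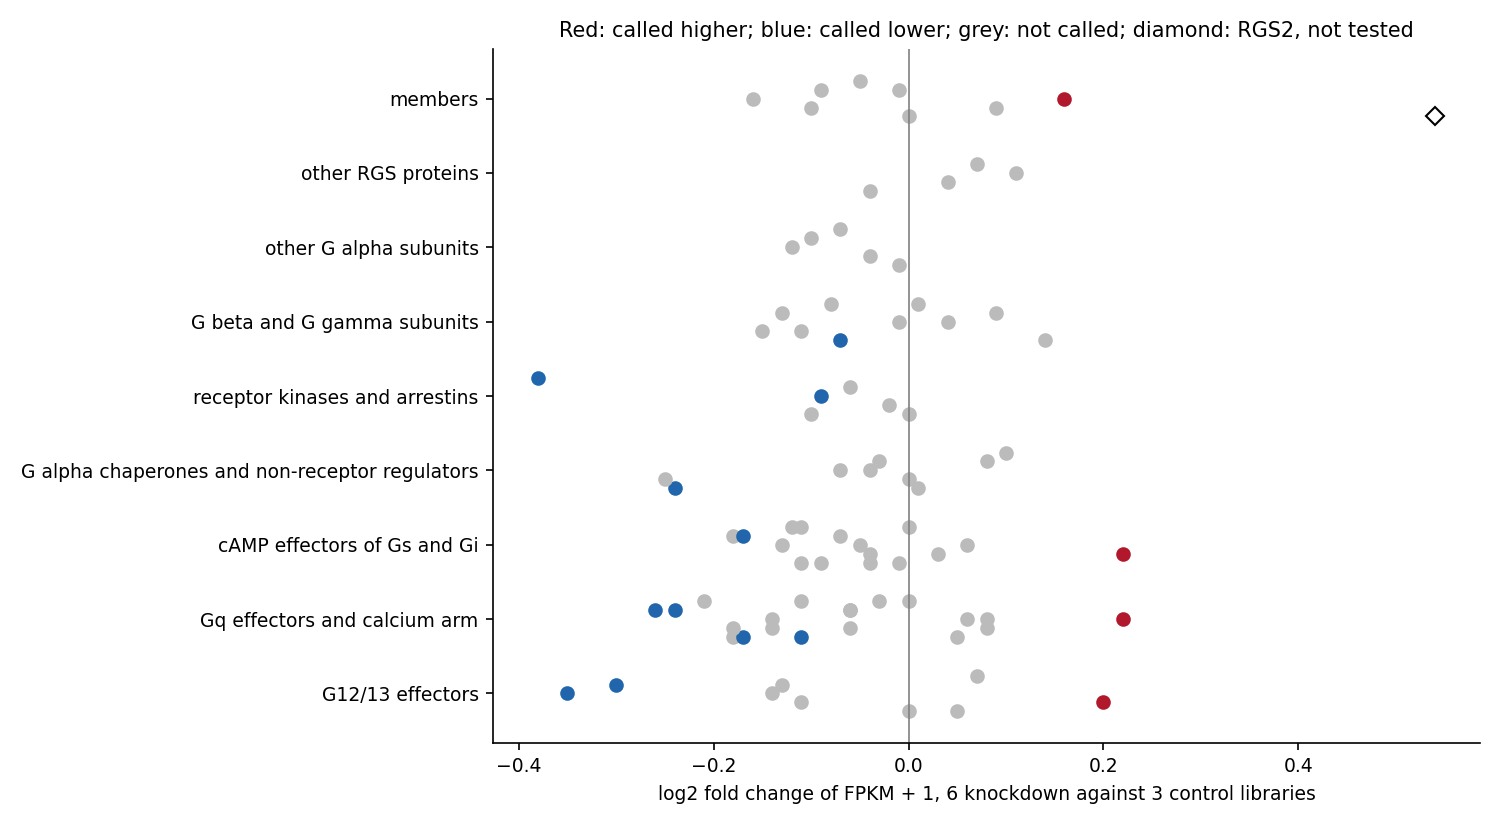
Log2 fold change of FPKM + 1 in 6 knockdown against 3 control libraries (x axis) for each tested gene of the 10 and of 8 pathway lists (y axis); red and blue points were called higher and lower, grey points were not called, and the diamond is RGS2, which was not tested. ARRB1 at -0.38 is the lowest point, and RGS2, which was chosen for its rise, is the highest at 0.54.

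The 5 tested genes whose level was most like that of RGS2 over the 9 libraries were ZNF551, CDC45, ATG12, XPA and SFXN4, with a Pearson r of 0.982 to 0.99 on the log2(FPKM + 1) scale. This is a description, chosen as the highest of all genes tested, and all points share the same libraries and groups. CDC45, part of the replicative helicase, was at a mean of 28.7 FPKM in control, 31.3 in shRNA1 and 33.7 in shRNA2, and XPA, a nucleotide excision repair protein, at 6.94, 7.62 and 8.26. ATG12, which is conjugated to ATG5 in autophagy, was at 6.88, 7.50 and 8.11. All 5 had the same order of group means as RGS2, which was built into their choice.

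**Figure D5:**
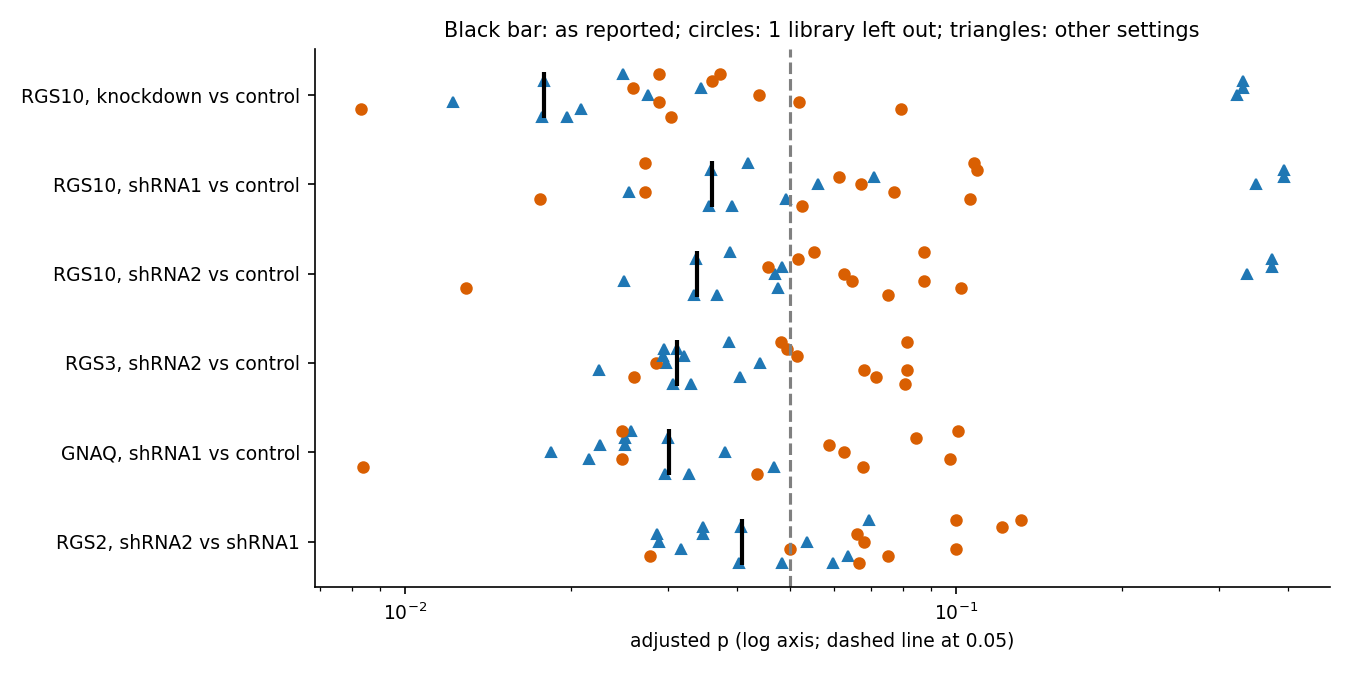
Adjusted p (x axis, log scale, dashed line at 0.05) for the 6 called differences among the 10 genes (y axis) as reported (black bars), with 1 library left out (circles) and under other settings (triangles). Each of the 6 had settings on both sides of 0.05, and the RGS10 points at the far right are those with the length trend removed.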

How the data were processed

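RNA of 9 DU145 libraries was sequenced (stranded mRNA kit), mapped with STAR and quantified with Cufflinks by the authors. The deposited values are FPKM per RefSeq accession and locus with confidence bounds and a status. The labels name hg38 and the study's methods mm10, but human accessions and hg38 loci are in the tables. The 10 genes and the lists were chosen with earlier results of these data known.

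The 9 tables (83497 rows) were joined on accession and locus. RefSeq names (72645 of 73240 accessions matched) gave summed FPKM for 27902 genes. Genes with a failed estimate in any library (42, GNAS and RGS11 among them) were left out of tests. limma 3.58.1 (R 4.3.3) was run on log2(FPKM + 1) for 12509 genes averaging 1 FPKM or more, with a 2-group model for pooled knockdown and a 3-group model for single hairpins, and Benjamini-Hochberg adjustment over all genes at 0.05. The scripts were tested on simulated data. Depth and fragments were estimated from the bounds, taking counts as Poisson, and cover counting error only. Named genes were the 10, FZD6, up to 3 called genes per list and direction with the largest changes, the 5 most like RGS2, and markers, of which some are not reported here. NFATC3, RGS20, GNA11, GNA12, GNAL, GNB2, GNB5, CCDC88C and the accessions were named after their values were seen. No 2 libraries held the same values (at least 77% of rows differed).

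Alternatives were another pseudocount (0.1), no filter or a mean of 5 FPKM, median centring, quantile normalization, removal of a lowess length trend, a replicate block, each library left out, primary chromosomes only, the criteria of the study (unadjusted p under 0.01 and 1.2-fold), and, for the hairpin difference, the 6 hairpin libraries. The status, GNAI3 length and combined block and length settings were added after seeing the data.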

Additional observations from a re-analysis of the deposited data

Results flagged for a closer look

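The log2 difference between shRNA2 and shRNA1 passed the test for RGS2 (0.28, limma adjusted p = 0.0409) and FZD6 (-0.25, adjusted p = 0.0273). Of the 5 genes picked for their likeness to RGS2, ATG12 and SFXN4 passed, each with 0.10, and ZNF551, CDC45 and XPA did not (0.12, 0.10 and 0.10). A difference in the direction of RGS2 was built into the choice of these 5, so their values are no separate support. Both FZD6 and RGS2 stood farther from control with shRNA2 than with shRNA1. The distance of RGS2 from control was used in choosing the genes, so this is a description, and a link was not tested. The call of RGS2 between hairpins was lost in 12 of 22 alternatives.

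GNAI3 in shRNA2 replicate 2, at 11.2 FPKM, stood apart from the other 5 knockdown libraries. Of 29 genes examined this way 1 stood apart, and chance flags about 1 in 20.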

How the results depend on the processing

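No called difference of the 10 genes changed sign under any alternative. The count of calls among the 10 genes (RGS2 being counted only between hairpins) was 1 for pooled knockdown, 2 for each hairpin and 1 between hairpins, and 0 to 2, 0 to 2, 0 to 3 and 0 to 1 with 1 library left out. Over all genes (2578, 2357, 3335 and 839) the counts were 997 to 3255, 917 to 3538, 2097 to 4195 and 333 to 1172, and 2 to 21 for the 14 listed genes. The criteria of the study were applied to log2(FPKM + 1) of genes averaging 1 FPKM or more. The study states neither that pseudocount nor that filter, so the counts are not its own. By these criteria 361 genes and 3 listed genes were called in pooled knockdown. Of the 8 tested genes of the 10 other than RGS2, which was not counted, 0 were called. With the length trend removed, 1521 genes and 7 listed genes were called for pooled knockdown, 1510 genes for shRNA1, and 3 of the 10 genes, beside 1188 of all genes, between hairpins. With GNAI3 also at its implied length, these were 1520, 7, 1509 and 3, with 0 of the 10 for pooled knockdown and 1 for shRNA1. Median centring and quantile normalization each left 1 of the 10 for shRNA1, RGS10 being lost. Between hairpins, 0 of the 10 were called with no filter, with the replicate block and with the 6 hairpin libraries, which called 337 genes.

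Same-numbered libraries did not deviate together (correlations -0.071 to 0.111, against -0.123 to 0.184 for other pairs), so the numbers were not taken as pairs. With the replicate block 2377 genes were called for pooled knockdown, 2525 for shRNA1, 3558 for shRNA2 and 802 between hairpins, with 12 listed genes, and it changed no count among the 10 genes but the one between hairpins. The block with the length trend removed gave 1108 genes and 6 listed genes for pooled knockdown, 1327 genes for shRNA1 and 4 of the 10, beside 2900 of all genes, for shRNA2. Without length the block gave 1, 2 and 2 of the 10 against control. The causes of these shifts were not tested. RGS2 and RGS12 had the lowest mean levels of the 10 genes, and whether low level limited their precision was not tested.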
